A study of Mus musculus with 5 samples.

Results

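The salt-inducible kinases and the transcription system they restrain were followed through 9 genes in brain microvascular fragments of hyperglycemic and control mice. The genes were the kinases *Sik1*, *Sik2* and *Sik3*, the CREB coactivators *Crtc1*, *Crtc2* and *Crtc3*, the factors *Creb1* and *Crem*, and the CREB target *Nr4a1*. They were found by matching Ensembl identifiers to symbols, 9 of the 34615 symbols in the files, and all 9 had a mean of at least 1 FPKM (the number of fragments divided by exon length and by library size), as did 16286 symbols in all. The set was chosen by pathway membership and selected on measured values too, since the lower *Sik1* FPKM of the Ins2-AKITA mice was already known. The genotype difference of the members is therefore given as a description, without a test.

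The data came from 3 wild-type (WT) mice and 2 mice heterozygous for Ins2-AKITA, a point mutation of the insulin 2 gene that destroys pancreatic beta cells and leaves the animals hyperglycemic. All were males on a C57BL6 background (C57Bl/6-J in the study's methods), between 26 and 38 weeks old, and the WT mice were littermates. Each library held the RNA of 1 mouse, from fragments that collagenase had loosened and beads against the endothelial protein PECAM1 had captured. The total RNA had been depleted of ribosomal RNA. Identical values were found in 0 pairs of libraries. The libraries rested on an estimated 1120000 to 2854000 fragments, with WT 3 the deepest and the other mice between 1120000 and 1316000.

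The endothelial markers were present in every mouse, with *Cldn5* between 76.0 and 174 FPKM, but the libraries were not endothelium alone. The summed level of 8 neuronal markers was 756 to 841 FPKM in WT and 760 to 912 in Ins2-AKITA mice, against 457 to 794 and 389 to 474 FPKM for 9 endothelial markers. The 7 astrocyte markers summed to 2167 to 3022 FPKM in WT and 3381 to 4017 in Ins2-AKITA mice. In such mixed RNA, fewer cells of a type and less RNA per cell cannot be told apart. The part of these other cells in the values of the members was not tested.

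Salt-inducible kinases belong to the AMPK family and are switched on by the kinase LKB1. They phosphorylate the CRTC coactivators, which are then held in the cytoplasm by 14-3-3 proteins. A rise in cAMP activates protein kinase A, which inhibits the kinases, while calcium acts through the phosphatase calcineurin, and both routes let CRTC proteins enter the nucleus and join CREB on promoters with a cAMP response element (CRE). *Sik1* is itself a CREB target, so that the pathway makes its own brake, and *Crem* encodes activators as well as the short repressor ICER.

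*Crtc1* and *Sik3* were the most abundant members, and their order was the same in every mouse. Over the 5 mice the mean levels per exon length were 77.4 FPKM for *Crtc1*, 47.6 for *Sik3*, 27.3 for *Nr4a1*, 20.3 for *Sik2*, 18.8 for *Crtc3*, 15.3 for *Crem*, 15.2 for *Creb1*, 15.1 for *Crtc2* and 12.3 for *Sik1*. The lower ranks of this pooled order differed by genotype. *Creb1* was the lowest member in WT (10.9 FPKM, beside 16.3 for *Sik1*), while with Ins2-AKITA its mean of 21.6 FPKM was above the 15.9 of *Sik2* and *Sik1* was lowest at 6.25. *Crtc1* thus stood above 93.7% of the tested symbols and *Sik1* above 55.7%. On the log2(FPKM + 1) scale *Crtc1* exceeded *Sik3* by 0.69 ± 0.20 (SD, n = 5) and *Sik3* exceeded *Nr4a1* by 0.79 ± 0.32, each in 5 of 5 mice. An exact two-sided sign-flip permutation test gave p = 0.0625 for both, the smallest p that 5 mice allow, and 0.25 after adjustment over the 8 neighbouring pairs. The pairs were taken from the order in these same 5 mice, so the test is no separate support for that order. *Nr4a1* exceeded *Sik2* in 4 of 5 mice (exact permutation p = 0.125, adjusted 0.333). From *Sik2* downwards the neighbours differed by less than the spread of their differences, with exact permutation p between 0.3125 and 1, and the order changed from mouse to mouse.

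**Figure D1:**
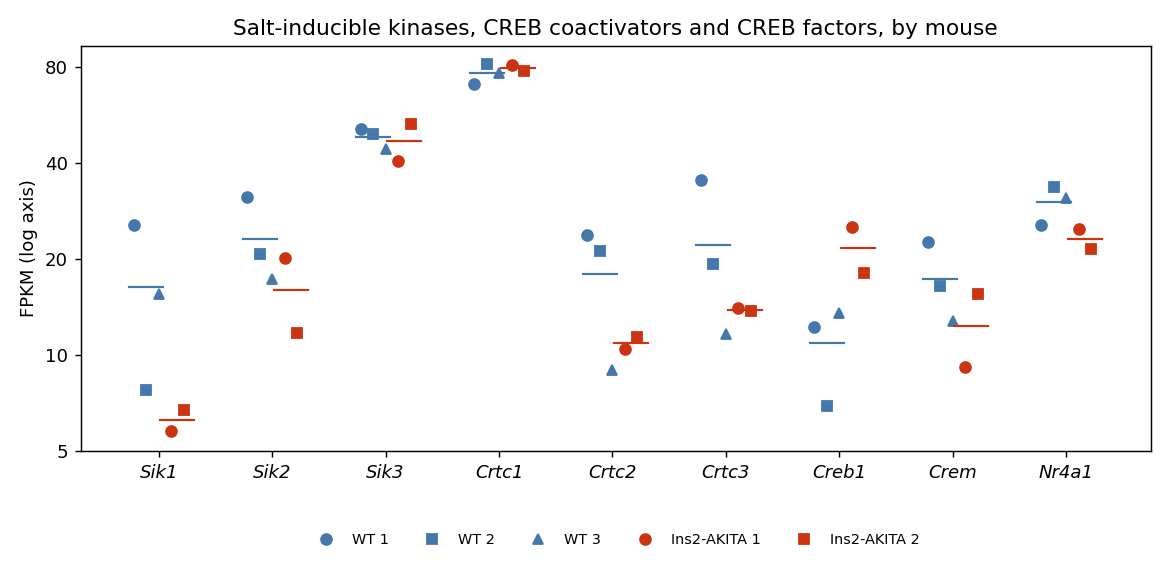
FPKM (log axis) of the 9 genes in each mouse, blue for WT and red for Ins2-AKITA, with the symbol shape giving the replicate and the short lines the group means. *Sik1* and *Nr4a1* of both Ins2-AKITA mice lie below all WT mice, *Creb1* lies above them, and the other 6 genes overlap between genotypes.

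Of the kinases, *Sik1* separated the genotypes and varied most. *Sik1* (ENSMUSG00000024042, minus strand of chromosome 17 of NCBIM37, 31981193 to 31992737) had 25.6, 7.78 and 15.6 FPKM in WT mice 1 to 3, against 5.79 and 6.71 FPKM in Ins2-AKITA mice 1 and 2, the order kept for every gene that follows. Both Ins2-AKITA mice lay below all WT mice, although WT 2 came close to them. The means were 16.3 ± 8.92 (SD, n = 3) and 6.25 ± 0.65 FPKM (SD, n = 2), a 2.61-fold lower mean with Ins2-AKITA, and the log2 difference on the log2(FPKM + 1) scale was -1.12 (standard error 0.47). *Sik1* has 1 annotated transcript, so the fragments behind each value could be estimated. In WT they numbered 127, 44 and 190, against 28 and 37 with Ins2-AKITA.

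The 95% Poisson interval of WT 2, 5.66 to 10.5 FPKM, overlapped those of the Ins2-AKITA mice, 3.87 to 8.42 and 4.73 to 9.27 FPKM, whereas the intervals of WT 1 (21.3 to 30.4) and WT 3 (13.4 to 17.9) did not. These intervals cover counting error only. The distance between the WT mice was therefore larger than counting error, and the gap between WT 2 and the Ins2-AKITA mice was not.

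*Sik2*, a kinase best known from adipose tissue and neurons, overlapped between genotypes. *Sik2* (ENSMUSG00000037112, minus strand of chromosome 9, 50700917 to 50817178) had 31.3, 20.8 and 17.3 FPKM in WT, against 20.2 and 11.7 FPKM in Ins2-AKITA mice, with Ins2-AKITA 1 inside the WT range and Ins2-AKITA 2 below it. The log2 difference was -0.52 (standard error 0.34). *Ppp2r1b* overlaps the gene on the opposite strand with a mean of 6.05 FPKM, and whether strand was used in counting is not given in the sources used here.

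*Sik3*, the largest of the kinases, was nearly constant. *Sik3* (ENSMUSG00000034135, plus strand of chromosome 9, 45820903 to 46032277) had 51.0, 49.3 and 44.3 FPKM in WT, against 40.6 and 52.8 FPKM in Ins2-AKITA mice. The Ins2-AKITA mice spanned the whole WT range, and the highest mouse was 1.3-fold above the lowest. *Sik3* made up 47.3% to 63.3% of the summed FPKM of the kinases in WT, against 61.0% and 74.1% in Ins2-AKITA mice. The share of *Sik1* was 23.7%, 9.99% and 20.2% in WT, against 8.70% and 9.43% in Ins2-AKITA mice. *Sik1* was the least abundant kinase in every mouse.

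Among the coactivators, *Crtc1*, the form that prevails in neurons, was the steadiest of all members. *Crtc1* (ENSMUSG00000003575, minus strand of chromosome 8, 72906254 to 72963478) had 70.6, 81.5 and 76.6 FPKM in WT, against 80.8 and 77.6 FPKM in Ins2-AKITA mice. Both Ins2-AKITA values lay inside the WT range, and the log2 difference was 0.06 (standard error 0.17).

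*Crtc2*, the coactivator of hepatic gluconeogenic genes, and *Crtc3* were both lowest in WT 3. *Crtc2* (ENSMUSG00000027936, plus strand of chromosome 3, 90058085 to 90068047) had 23.7, 21.2 and 8.95 FPKM in WT, against 10.5 and 11.4 FPKM in Ins2-AKITA mice. *Crtc3* (ENSMUSG00000030527, minus strand of chromosome 7, 87731513 to 87833763) had 35.5, 19.2 and 11.6 FPKM in WT, against 14.05 and 13.7 FPKM in Ins2-AKITA mice. For both genes the Ins2-AKITA mice were within 1 FPKM of each other, above WT 3 and below WT 1 and WT 2. The log2 differences were -0.56 (standard error 0.42) and -0.50 (standard error 0.44) for *Crtc2* and *Crtc3* in turn. *Crtc1* made up 54.4% to 78.8% of the summed coactivator FPKM in WT, against 76.7% and 75.6% in Ins2-AKITA mice.

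*Creb1*, which encodes the factor that the coactivators join, was the one member higher in both Ins2-AKITA mice. *Creb1* (ENSMUSG00000025958, plus strand of chromosome 1, 64579378 to 64651121) had 12.2, 6.95 and 13.5 FPKM in WT, against 25.2 and 18.1 FPKM in Ins2-AKITA mice. The genotypes did not overlap. The means were 10.9 ± 3.49 (SD, n = 3) and 21.6 ± 5.04 FPKM (SD, n = 2), 1.98-fold higher in Ins2-AKITA mice, with a log2 difference of 0.96 (standard error 0.34).

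*Crem* (ENSMUSG00000063889) had 22.6, 16.4 and 12.8 FPKM in WT, against 9.19 and 15.5 FPKM in Ins2-AKITA mice, with a log2 difference of -0.46 (standard error 0.34). Ins2-AKITA 1 was below all WT mice and Ins2-AKITA 2 was within their range. The annotation lists 41 transcripts for *Crem*, more than for any other member, and a value per gene does not separate ICER from the activators.

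*Nr4a1*, an orphan nuclear receptor whose gene responds within minutes to cAMP and calcium, had a narrow range. *Nr4a1* (ENSMUSG00000023034, plus strand of chromosome 15, 101097277 to 101105223) had 25.5, 33.7 and 31.1 FPKM in WT, against 24.9 and 21.5 FPKM in Ins2-AKITA mice. Both Ins2-AKITA mice were below all WT mice, but Ins2-AKITA 1 and WT 1 differed by less than counting error, with 95% Poisson intervals of 19.2 to 31.9 and 19.9 to 32.5 FPKM on 63 and 67 fragments. The means were 30.1 ± 4.17 and 23.2 ± 2.40 FPKM, 1.30-fold lower in Ins2-AKITA mice, with a log2 difference of -0.36 (standard error 0.21). With median-ratio scaling Ins2-AKITA 1 no longer lay below WT 1.

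Promoter windows, from 250 bases before to 50 bases after the transcription start, were listed by RefSeq on GRCm38.p6 for 6 of the 9 members, and not for *Sik1*, *Crtc2* and *Crem*. The full CRE, TGACGTCA, was in none of the 6 windows and in 1.79% of 32851 mouse windows. The short CRE motif, TGACG on either strand, was in 3 of the 6 and in 20.8% of all windows, where the short motif was also counted inside the full one. The promoters of 3 genes are shown up to the start, with the short motif in capitals, because *Nr4a1* was lower and *Creb1* higher in both Ins2-AKITA mice, while *Sik3* stayed level.
*Nr4a1*, chr15:101266596-101266845, plus strand: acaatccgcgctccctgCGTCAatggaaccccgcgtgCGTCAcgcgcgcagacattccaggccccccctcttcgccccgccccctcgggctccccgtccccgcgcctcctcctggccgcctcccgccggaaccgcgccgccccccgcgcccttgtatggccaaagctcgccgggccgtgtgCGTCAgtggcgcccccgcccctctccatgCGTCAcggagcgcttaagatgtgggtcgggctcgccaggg
*Sik3*, chr9:46012570-46012819, plus strand: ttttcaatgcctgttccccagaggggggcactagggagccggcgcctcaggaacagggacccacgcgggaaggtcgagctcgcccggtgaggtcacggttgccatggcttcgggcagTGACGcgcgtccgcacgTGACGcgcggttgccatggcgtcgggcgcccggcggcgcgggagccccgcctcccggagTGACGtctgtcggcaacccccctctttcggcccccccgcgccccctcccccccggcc
*Creb1*, chr1:64532554-64532803, plus strand: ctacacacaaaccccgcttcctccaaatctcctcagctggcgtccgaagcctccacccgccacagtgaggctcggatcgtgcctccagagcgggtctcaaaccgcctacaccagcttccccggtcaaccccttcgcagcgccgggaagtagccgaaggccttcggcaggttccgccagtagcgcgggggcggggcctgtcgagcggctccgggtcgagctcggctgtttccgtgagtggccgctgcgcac

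The *Nr4a1* window held 4 short motifs, starting at positions -233, -213, -69 and -40 from the transcription start, all on the minus strand, a number reached by 0.231% of all windows. The *Sik3* window held 3, at -133, -116 and -57 on the plus strand, a number that 1.03% of all windows reached or passed. *Sik2* held 2, at -1 and 12. *Creb1*, *Crtc1* and *Crtc3* held none. A match in these letters is a description of the sequence and does not show binding.

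**Figure D2:**
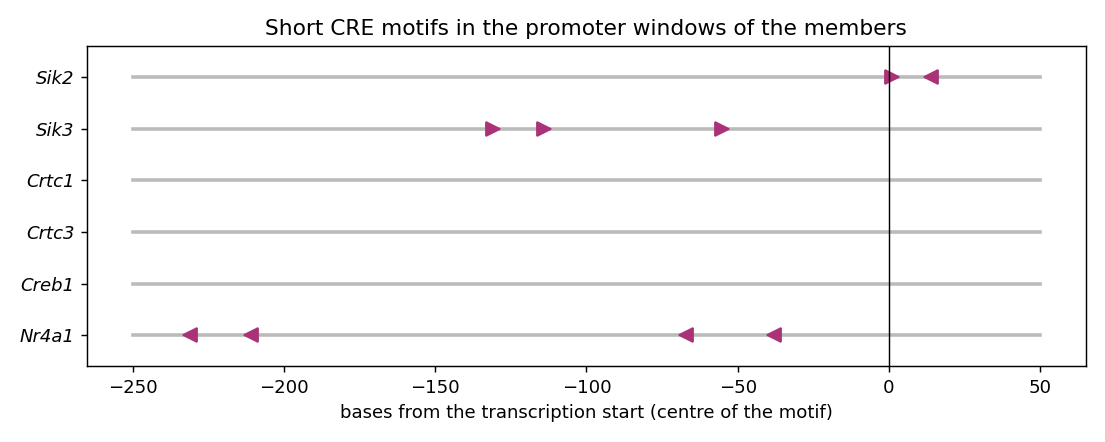
Positions of the short CRE motif in the promoter windows of 6 genes, with grey lines for the windows, triangles for motifs on the plus (pointing right) and minus (pointing left) strand, and the transcription start at 0. *Nr4a1* has 4 motifs, *Sik3* has 3, *Sik2* has 2 around the start, and the other 3 genes have none.

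Seen together, 7 of the 9 members had a lower and 2 a higher mean in Ins2-AKITA mice, with a median log2 difference of -0.46 beside -0.03 over all 16286 symbols, of which 53.5% were lower. The members' median was -0.26 without WT 1 and likewise -0.26 without Ins2-AKITA 2. Both Ins2-AKITA mice lay below all WT mice for 2 members (*Sik1* and *Nr4a1*) and above them for 1 (*Creb1*), and over all symbols these shares were 10.3% and 9.24%. Since the members were put together with results in view, nothing is read from these counts.

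The deposited values had not been brought to a common sum. When each mouse was rescaled to the same sum (TPM), the median log2 difference of all symbols moved from -0.03 to 1.07, and all 9 log2 differences were positive. The sum over all genes lay between 1531575 FPKM in Ins2-AKITA 2 and 13025905 FPKM in WT 1, while the sum over protein-coding genes lay between 388605 and 421601 FPKM. Relative to the median of all symbols, *Sik1* was at -1.08 as deposited and -0.78 under TPM, and *Creb1* at 0.99 and 0.91. *Nr4a1* went from -0.32 to 0.05. The TPM factor alone, shared by all genes of a mouse, would leave these distances unchanged. They moved because 1 was added after the rescaling, which weighs more on low values. Under the protein-coding sum, median-ratio scaling and quantile normalization, *Sik1* stayed between -1.08 and -1.06 relative to that median and *Creb1* between 0.987 and 0.993.

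**Figure D3:**
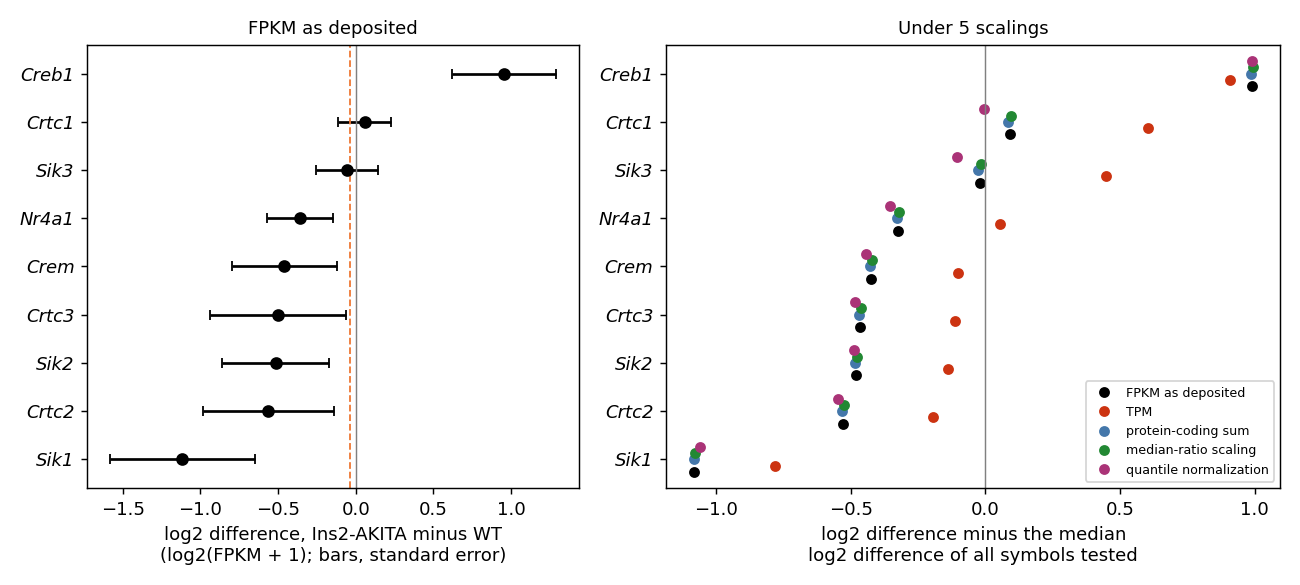
Left, log2 difference (Ins2-AKITA minus WT, on log2(FPKM + 1)) of each gene with its standard error, the dashed line marking the median of all symbols tested. Right, the same difference minus that median under 5 scalings, where *Sik1* stays lowest, from -1.08 to -0.78, and *Creb1* highest, from 0.91 to 0.99.

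Ratios between members within a mouse do not depend on how the libraries are scaled. The FPKM of *Sik1* was 0.311, 0.111 and 0.253 times that of *Sik2* and *Sik3* together in WT, against 0.0953 and 0.104 times in Ins2-AKITA mice. The log2 ratio was thus lower by 1.05 in the mean, set against a pooled SD of 0.64, and WT 2 again stood next to the Ins2-AKITA mice.

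The repressor-bearing gene *Crem* was 1.86, 2.36 and 0.943 times *Creb1* in WT, against 0.365 and 0.858 times in Ins2-AKITA mice. Both Ins2-AKITA mice were below all WT mice, WT 3 being close to Ins2-AKITA 2, and the mean log2 ratios were 0.68 ± 0.69 (SD, n = 3) and -0.84 ± 0.87 (SD, n = 2). *Nr4a1* was 2.09, 4.85 and 2.29 times *Creb1* in WT, against 0.987 and 1.19 times in Ins2-AKITA mice. Here the groups stood apart, with mean log2 ratios of 1.51 ± 0.67 and 0.11 ± 0.19. *Crtc2* relative to the other coactivators overlapped, at 0.224, 0.21 and 0.101 in WT, against 0.11 and 0.125 in Ins2-AKITA mice. These ratios were formed from the same values as above and add no separate evidence on the members.

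**Figure D4:**
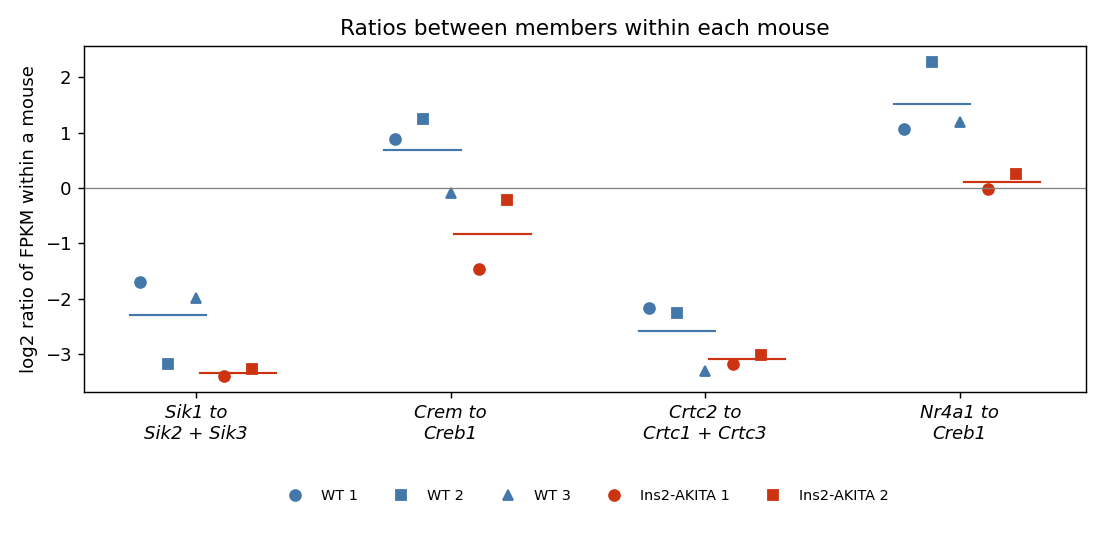
The log2 ratio of FPKM between members within each mouse, blue for WT and red for Ins2-AKITA, with lines at the group means. *Crem* to *Creb1* and *Nr4a1* to *Creb1* are lower in both Ins2-AKITA mice than in any WT mouse, *Sik1* to *Sik2* + *Sik3* is lower by a narrow margin to WT 2, and *Crtc2* to the other coactivators overlaps.

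The rest of the pathway was examined through 8 lists with 118 genes, of which 115 were tested. None passed an adjusted p of 0.05 in limma in either direction (smallest adjusted p = 0.896 from limma), where 0 higher and 4 lower of all symbols did (0% and 0.0246%). Of the 115 genes, 2 higher and 9 lower had an unadjusted p under 0.05, beside 1.53% and 2.93% of all symbols. The median log2 difference of the 115 genes was -0.04, close to that of all symbols.

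Upstream of the kinases, the genotypes overlapped for 5 of 5 genes of the LKB1 complex, a list too short to set against the 9.24% of all symbols above and the 10.3% below all WT mice. *Cab39*, the scaffold of the complex, had the smallest limma p among its higher genes, with 33.8, 33.0 and 41.1 FPKM in WT, against 40.9 and 46.7 FPKM in Ins2-AKITA mice, and the pseudokinase gene *Strada* among its lower ones, with 9.81, 9.88 and 4.60 FPKM in WT, against 6.17 and 7.05 FPKM in Ins2-AKITA mice. Of 11 other kinases that LKB1 activates, *Brsk1*, a brain kinase, was higher in both Ins2-AKITA mice, with 170.4 and 205.2 FPKM against 143.7 to 169.8 in WT. For *Brsk1*, Ins2-AKITA 1 nearly equalled WT 3. *Snrk* was lower, with 72.7 and 74.8 against 79.9 to 97.3 FPKM. The list medians were 0.19 and 0.04.

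Among 30 genes of cAMP signalling, 3 were higher and 3 lower in both Ins2-AKITA mice than in all WT mice, close to the 9.24% and 10.3% of all symbols, and the median was 0.01. *Adcy1*, a calcium-stimulated adenylyl cyclase of neurons, had 86.6, 79.6 and 98.4 FPKM in WT, against 109 and 125 FPKM in Ins2-AKITA mice (log2 difference 0.41, standard error 0.19, adjusted p = 0.896 from limma). *Pde7a*, a cAMP phosphodiesterase, had 18.8, 18.8 and 10.9 FPKM in WT, against 9.998 and 5.67 FPKM in Ins2-AKITA mice, a log2 difference of -0.96 (standard error 0.36), with Ins2-AKITA 1 next to WT 3.

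On the calcium side, 4 of 17 genes were higher and 1 lower in both Ins2-AKITA mice than in all WT mice, where 9.24% and 10.3% of all symbols were. *Ppp3ca*, the main catalytic subunit of calcineurin in brain, had 107, 111 and 121 FPKM in WT, against 146 and 143 FPKM in Ins2-AKITA mice. *Ppp3cc*, a less abundant catalytic subunit, had 8.22, 13.1 and 9.97 FPKM in WT, against 4.49 and 6.30 FPKM in Ins2-AKITA mice. The adjusted p was 0.896 from limma for both. They were named for the smallest limma p in each direction, so their opposite sides follow from that choice. The other calcineurin subunit genes of the list, *Ppp3cb*, *Ppp3r1* and *Ppp3r2*, overlapped between genotypes.

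The partners further down gave a like picture. Of 7 genes for 14-3-3 proteins, *Ywhae* had 403, 443 and 600 FPKM in WT, against 576 and 895 FPKM in Ins2-AKITA mice, within the WT range in Ins2-AKITA 1. *Sfn* was the lower one, with 3.20 and 2.25 FPKM against 3.27 to 5.56 in WT, Ins2-AKITA 1 nearly equalling WT 2. It was the 1 gene of the list below all WT mice, beside 10.3% of all symbols. Class IIa histone deacetylases are further substrates of the kinases and repress MEF2 factors. In that list 7 of 8 genes were tested. *Mef2c*, with 38.7 and 41.6 FPKM against 28.1 to 33.3 in WT, was the 1 gene above all WT mice, beside 9.24% of all symbols. *Mef2d* overlapped at 77.2 and 60.7 FPKM against 73.3 to 120 in WT. Of 13 CREB relatives and acetyltransferases, 2 were above and 2 below all WT mice in both Ins2-AKITA mice, beside 9.24% and 10.3% of all symbols. *Atf1*, the factor closest to CREB, had 19.1, 19.4 and 19.8 FPKM in WT, against 47.2 and 23.5 FPKM in Ins2-AKITA mice (log2 difference 0.75, standard error 0.31, adjusted p = 0.896 from limma). The WT values of *Atf1* were nearly equal and the Ins2-AKITA mice differed from each other. *Kat2a*, a histone acetyltransferase, had 15.04 and 12.7 FPKM against 15.01 to 20.8 in WT.

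Genes that CREB or an acute stimulus induces were, of the 8 pathway lists, the one farthest from the median of all symbols. Of 27 genes, 25 were tested, with a median log2 difference of -0.38. A lower mean in Ins2-AKITA mice was found for 19 and a higher one for 6, where 53.5% of all symbols were lower. Of the cell-type marker lists given below, the erythroid (-1.09), mural (-0.50) and astrocyte (0.47) medians lay farther out and the others nearer. None of the 25 genes passed an adjusted p of 0.05 in limma. At an unadjusted p under 0.05 there were 7 lower and 1 higher, beside 2.93% and 1.53% of all symbols. Of the 25 genes, 10 had both Ins2-AKITA values under the lowest WT value and 2 had them over the highest, where 10.3% and 9.24% of all symbols did. Under the protein-coding sum these were 11 and 2 genes, beside 12.1% and 7.42% of all symbols. Under median-ratio scaling they were 9 and 2, beside 10% and 9.3% of all symbols. Under TPM, however, they were 0 and 6, beside 0.632% and 33.2% of all symbols.

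The clock gene *Per1*, a CREB target, had 74.7, 37.8 and 33.6 FPKM in WT, against 15.5 and 19.4 FPKM in Ins2-AKITA mice, a log2 difference of -1.34 (standard error 0.37, adjusted p = 0.896 from limma). Its WT 1 value stood above the others, as for *Sik1*, but WT 2 did not approach the Ins2-AKITA mice. *Sst*, the neuropeptide gene in which the CRE was first described, had 77.9, 64.6 and 46.1 FPKM in WT, against 30.8 and 25.1 FPKM in Ins2-AKITA mice, a log2 difference of -1.12 (standard error 0.27, adjusted p = 0.896 from limma). It marks a class of interneurons. *Per2* overlapped, with 7.02 to 14.04 FPKM in WT, against 8.06 and 7.21 in Ins2-AKITA mice.

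The relatives of *Nr4a1* went separate ways. *Nr4a3* had 24.1, 21.5 and 31.3 FPKM in WT, against 14.7 and 14.5 FPKM in Ins2-AKITA mice, a log2 difference of -0.75 (standard error 0.23), and *Nr4a2* had 11.98, 15.6 and 22.8 FPKM in WT, against 14.7 and 26.8 FPKM in Ins2-AKITA mice. *Nr4a3* was thus outside and *Nr4a2* inside the overlap of the genotypes.

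The AP-1 and EGR genes, which respond early to many stimuli, were split as well. *Fos* overlapped, with 24.6, 26.7 and 33.7 FPKM in WT, against 23.7 and 34.2 FPKM in Ins2-AKITA mice, and so did *Egr1*, with 15.5 to 28.0 FPKM in WT, against 19.9 and 14.4 in Ins2-AKITA mice. Lower in both Ins2-AKITA mice than in all WT mice were *Fosl2* (5.51 and 7.59 against 9.82 to 13.3 FPKM), *Jun* (46.1 and 43.1 against 46.4 to 74.3), *Junb* (23.6 and 23.6 against 26.0 to 41.2) and *Egr3* (16.4 and 20.9 against 26.1 to 32.6). Ins2-AKITA 1 was within 1 FPKM of WT 1 for *Jun*.

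Of the further genes of the list with a mean of at least 5 FPKM, *Dusp1*, a MAP kinase phosphatase, had 12.9 and 18.6 FPKM against 21.4 to 33.6 in WT, and *Klf4* had 17.4 and 13.6 against 19.7 to 31.7. *Ppargc1a*, a coactivator of mitochondrial genes, had 27.1, 28.7 and 22.9 FPKM in WT, against 47.3 and 36.1 FPKM in Ins2-AKITA mice (log2 difference 0.64, standard error 0.22), and *Rgs2*, a regulator of G protein signalling, had 6.74 to 11.6 in WT, against 14.1 and 12.8 in Ins2-AKITA mice. These were the 2 genes on the higher side. *Ier2* (8.89 and 4.81 against 5.96 to 10.5 FPKM), *Btg2* (9.51 and 13.6 against 7.48 to 12.6) and *Vgf* (73.2 and 51.5 against 60.2 to 109) overlapped.

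**Figure D5:**
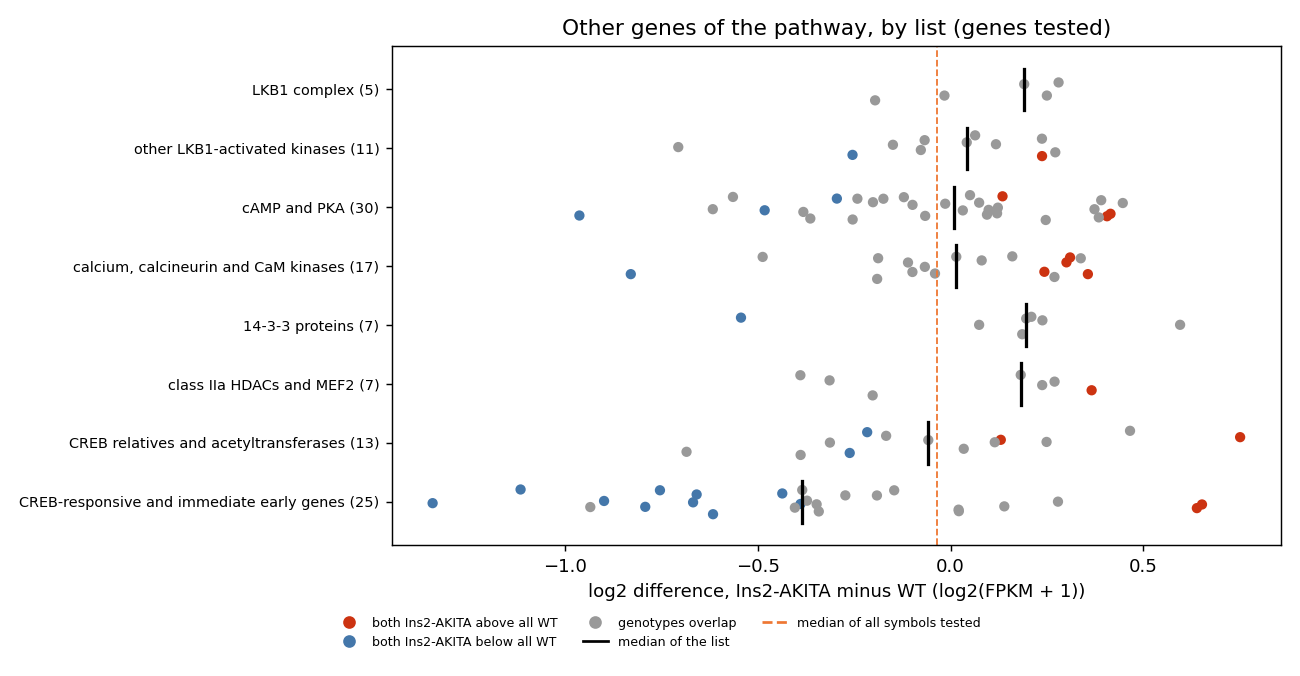
The log2 difference (Ins2-AKITA minus WT) of the tested genes of each list, 1 point per gene, with the list median in black and the median of all symbols dashed, and colour showing whether both Ins2-AKITA mice lie above (red) or below (blue) all WT mice. The CREB-responsive and immediate early genes have a median of -0.38 with 10 genes below all WT mice, while the other lists have medians between -0.06 and 0.20.

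Markers of several cell types differed between the genotypes in the same mice. The summed mural markers, led by *Acta2*, were 411 to 483 FPKM in WT, against 375 and 294 in Ins2-AKITA mice, and 4 of 9 were below all WT mice in both Ins2-AKITA mice, beside 10.3% of all symbols. These were the smooth muscle genes *Acta2*, *Myh11* and *Tagln* and the pericyte gene *Vtn*, while the pericyte genes *Pdgfrb* (means of 17.5 FPKM in WT and 17.2 with Ins2-AKITA) and *Rgs5* (107.5 and 108.3 FPKM) overlapped. They were named after their values had been seen, as were the other markers here that do not lead a list. The endothelial markers had a lower mean for 8 of 9 genes, beside 53.5% of all symbols, with 3 of 9 below all WT mice, beside 10.3%. The astrocyte markers, led by *Slc1a2*, had a higher mean for 7 of 7 genes, beside 7568 of the 16286 symbols tested. Of these markers, 3 were above all WT mice, beside 9.24% of all symbols. The microglial markers, led by *C1qb*, summed to 118 to 162 FPKM in WT and 122 to 133 in Ins2-AKITA mice. Although these sums overlapped, *C1qb* and *C1qa* were below all WT mice in both Ins2-AKITA mice, 2 of 7 genes. The other 5 microglial markers had a higher mean with Ins2-AKITA and overlapped between genotypes. The median log2 difference of the microglial list was 0.07. The oligodendrocyte markers, led by *Mbp*, summed to 1926 to 2613 FPKM in WT and 2096 to 2302 with Ins2-AKITA, and 1 of 6 was above all WT mice. The erythroid markers, led by *Hba-a1*, were 35.1 to 67.7 FPKM in WT and 25.1 to 32.4 in Ins2-AKITA mice, with 1 of 5 below all WT mice. The sum of the neuronal markers, led by *Slc17a7*, overlapped between genotypes, but *Gad2* was above all WT mice in both Ins2-AKITA mice and *Rbfox3* below them. None of these 51 markers passed an adjusted p of 0.05 in limma. An unadjusted p under 0.05 was reached by 6, all lower, beside 2.93% of all symbols lower and 1.53% higher. No list had a marker at 0 in any mouse except 1 of 5 in the erythroid list (*Hbb-b2*). Their part in the levels of *Sik1*, *Nr4a1* and *Creb1* was not tested.

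The genes whose course over the 5 mice came closest to each of 3 members were sought among 10472 protein-coding genes with a mean of at least 5 FPKM, by the Euclidean distance between log2(FPKM + 1) values set to a mean of 0. Nearest to *Sik1* were *Ints2* (distance 0.158), *Tsc22d3* (0.386), *Xrcc6* (0.407), *Apold1* (0.425) and *Zmym1* (0.476), while the median distance of all genes was 1.77. *Ints2*, an Integrator subunit, had 13.9, 3.66 and 8.92 FPKM in WT, against 2.85 and 3.03 FPKM in Ins2-AKITA mice. *Tsc22d3*, which encodes the leucine zipper protein GILZ, had 80.6, 20.9 and 42.1 FPKM in WT, against 15.9 and 24.7 FPKM in Ins2-AKITA mice, and *Apold1*, an endothelial early response gene, had 24.9, 7.18 and 13.4 FPKM and 5.80 and 8.90 FPKM. In all 5 genes WT 1 was the highest mouse, as for *Sik1*, which follows from choosing them by closeness to it.

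No member was close to *Sik1*: the nearest was *Crem* (1.27), then *Sik2* (1.29), and *Crtc1* (1.82) and *Creb1* (2.42) were farther than the median gene. Nearest to *Nr4a1* were *Nck1* (0.125), *Gtpbp1* (0.141), *9830001H06Rik* (0.145), the endothelial receptor gene *Tie1* (0.146) and *Vim* (0.149), with a median distance of 0.819 over all genes. *Tie1* had 11.4, 17.6 and 15.2 FPKM in WT, against 12.3 and 10.2 FPKM in Ins2-AKITA mice. Nearest to *Crem* were *Nsmce1* (0.128), *Chuk* (0.167), *Llph* (0.183), *Prr7* (0.189) and *Sidt2* (0.207), with a median of 1.06. The distances rest on 5 mice, which all genes share, and are descriptions.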

How the data were processed

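RNA of brain microvascular fragments was sequenced from 3 WT and 2 Ins2-AKITA mice, 1 library per mouse. Per the labels and the methods, the authors mapped reads to NCBIM37 with TopHat2 2.0.4, removed duplicates with Picard 1.92, tested with Cufflinks 2.2.1, and deposited FPKM per Ensembl gene and mouse. The program behind the values of single mice and the annotation release are not given in the sources used here. Removing duplicates can lower abundant short genes.

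Identifiers were matched to GENCODE vM1 on NCBIM37 (37197 of 37982), and rows sharing a symbol were summed. The 16286 symbols averaging 1 FPKM or more were fitted with limma 3.58.1 in R 4.3.3 (lmFit, eBayes with a trend) on log2(FPKM + 1), which understates the fold of low genes, with genotype as the only factor, two-sided, with Benjamini-Hochberg adjustment at 0.05. The Cufflinks test needs reads and was not repeated. The fit was run on simulated data with independent genes, 200 of them changed, where only recovery of the mean shift was required. That simulation does not check the calls in these mice. Levels of neighbouring members were compared by exact sign-flip permutation in Python 3.11.15. Fragments per mouse were estimated from genes with 1 transcript, whose low FPKM, with 220 or 225 bases taken off the exon length, were whole multiples of 1 fragment (within 0.05) for 97.06% to 97.98% of genes. p-values measure the spread between these 5 mice.

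The members and the lists were chosen with earlier results of these data known. Named were all members, in each pathway list the genes past the threshold and the gene with the smallest p in each direction, the CREB-responsive genes with a mean of at least 5 FPKM, the 5 nearest profiles to *Sik1*, *Nr4a1* and *Crem*, and the leading gene of each marker list. Markers of endothelial, mural, astrocyte, neuronal, microglial, oligodendrocyte and erythroid cells formed 7 lists. Alternatives were another added value (0.1), no filter or a mean of 5, TPM, protein-coding sum, median-ratio and quantile scaling, a constant prior, the replicate block, the highest row per symbol, and each mouse left out. The non-overlap counts under other scalings were chosen after seeing the data.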

Additional observations from a re-analysis of the deposited data

How the results depend on the processing

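Under TPM 58 genes were called higher (0 as deposited) and 30 lower (4), the median of the 9 members was 0.97 (-0.46), and the log2 differences were 0.29 for *Sik1*, 0.93 for *Sik2*, 1.52 for *Sik3*, 1.67 for *Crtc1*, 0.87 for *Crtc2*, 0.95 for *Crtc3*, 1.98 for *Creb1*, 0.97 for *Crem* and 1.12 for *Nr4a1*. The TPM factor is shared by all genes of a mouse, and ratios between members keep their value. A constant prior variance gave 1 gene higher and 2 lower, and no filter or a filter at 5 FPKM gave 2 lower. The number of pathway genes called was 0 under every alternative run.

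With each mouse left out in turn, 0 to 10 genes were called higher, the 10 without Ins2-AKITA replicate 2, 3 without Ins2-AKITA replicate 1 and 1 without WT replicate 1. Lower calls numbered 1 to 6, with 1 without either Ins2-AKITA mouse, 2 without WT replicate 2 and 6 without WT replicate 3. A lone Ins2-AKITA mouse is then assumed to vary like the WT mice. The log2 difference lay between -1.53 and -0.74 for *Sik1*, the smaller without WT 1, between 0.69 and 1.19 for *Creb1*, -0.47 and -0.26 for *Nr4a1*, -0.87 and -0.10 for *Crtc3*, -0.97 and -0.32 for *Crtc2*, -0.88 and -0.15 for *Sik2*, -0.81 and -0.11 for *Crem*, and -0.24 and 0.13 for *Sik3*, which turned positive without Ins2-AKITA replicate 1. *Crtc1* stayed between 0.0036 and 0.11, and the members' median between -0.65 and -0.26, nearest to 0 without WT replicate 1 or Ins2-AKITA replicate 2. The log2 ratios kept their direction, between -1.49 and -0.75 for *Sik1* to the other kinases, -2.14 and -0.90 for *Crem* to *Creb1*, and -1.62 and -1.02 for *Nr4a1* to *Creb1*. In the order of levels, *Crem* above *Crtc2* lay between -0.042 and 0.16, *Crtc2* above *Creb1* between -0.36 and 0.30 and *Creb1* above *Sik1* between -0.0086 and 0.73. The cause was not tested.

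The labels number the mice alike in both genotypes without pairing them. Deviations from the genotype means correlated at 0.051 and -0.034 for same-numbered mice, and with 2 Ins2-AKITA mice the deviations are exact opposites. With the replicate block 0 genes were higher and 5 lower. Only WT had a replicate 3, so the block took up WT 3 entirely. The log2 differences of the members were therefore those of the fit without WT replicate 3. The members' median was -0.65, *Sik1* was at -1.08 and *Creb1* at 1.12, and no member changed direction. The block thus adds no separate check of the members.

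With 28 to 190 estimated fragments on *Sik1* per mouse, differences of the size of that between WT 2 and the Ins2-AKITA mice were not detectable at this depth.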
